A study of Mus musculus with 15 samples.

Results

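Transcripts of 7 crystallin family genes were followed in 15 RNA samples of a mouse lens epithelial line, 21EM15. They were the α-crystallin gene *Cryab*, the β-crystallin gene *Cryba4*, the βγ-motif genes *Crybg1* and *Crybg3*, the ζ-crystallin gene *Cryz* with its relative *Cryzl2*, and the λ-crystallin gene *Cryl1*. The genes were chosen by name, as the crystallin genes listed in the expression values of the series, and matched by gene symbol. All 7 were among the 11677 genes listed for the cultures, and 6 of them, without *Cryba4*, among the 11299 listed for the microdissected regions. The study grew 21EM15 cells as flat cultures (2D) and as spheroids, which it treats as lens organoids (3D), and asked how the expression of lens genes differs between them and between the layers of a spheroid. RNA was read by sequencing of 3′ ends, so that read counts depend little on transcript length. Levels are set side by side between genes on that footing, and other differences between genes in how reads arise and map were not tested.

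The 4 samples of the 2D group came each from a dish of cells near confluence. The 4 samples of the 3D group were each a pool of spheroids formed in non-adhesive coated wells for 10 days. Internal (4 samples) and external (3 samples) regions were cut by laser capture microdissection (LCM) from sections of pooled spheroids, and the layer between them was not sampled. The study left a further external sample out after looking at principal components, and that sample was not analysed here. All 4 groups were unmodified cells of the same line, fed the same medium, with no other treatment named in the labels. RNA of the 2D and 3D groups was extracted with a NucleoSpin kit and that of the regions with a PicoPure kit. The line is a single immortalized line, and neither the labels nor the methods say that replicates were separate experiments, so p-values measure the spread between these samples, which may be technical. Levels are log2 CPM (counts scaled to library size), normalized separately for the cultures and for the regions. Tests were therefore made only within the cultures (3D against 2D) and within the regions (internal against external).

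Crystallins are the abundant soluble proteins that give the lens its refractive power. The α-crystallins are small heat shock proteins that hold unfolding proteins in solution, the β- and γ-crystallins are structural proteins built of Greek key motifs, and further proteins carry the name because they share those motifs or because an enzyme was recruited to the lens in some animals. Lens epithelial cells make α-crystallins, while most β- and γ-crystallins accumulate as fiber cells differentiate. The other α-, β- and γ-crystallins of the fixed list, such as *Cryaa*, *Crybb1* and *Crygs*, were not analysed here, nor were *Crybg2*, *Cryzl1* and *Crym*.

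Depth, summed over listed genes, was 7305053 to 9362587 reads per cultured sample and 4044230 to 11702504 reads per microdissected sample. A count of 3 reads corresponded to between 0.312 and 0.409 CPM in the cultures and to between 0.248 and 0.802 CPM in the regions, and this covers counting error only. The 2D replicate 3 stood apart, with 190 listed genes at 0 reads where its group mates had 21 to 68, and culture results whose value it moved by over 1.5 times, or whose call it changed, are also given without it. Of 10 lens epithelium markers, 5 were listed (*Pax6*, *Six3*, *Cdh2*, *Gja1* and *Pdgfra*), with a summed level of 695 to 830 CPM in 2D, 849 to 1067 in 3D, 689 to 860 in the internal and 538 to 689 in the external region. *Six3* was the highest of them. *Cdh2* had means of 6.95 log2 CPM in 2D, 6.27 in 3D, 6.08 inside and 6.20 outside, with differences of the opposite sign to the sums. *Gja1* (5.39, 4.94, 4.22 and 4.45) went with *Cdh2* in both comparisons, and *Pdgfra* (4.30, 5.11, 4.79 and 4.94) in the regions only. *Foxe3*, *Pitx3*, *Sox2*, *Cdh1* and *Npnt* were not analysed here. Of 16 lens fiber markers, the regions listed 3 (*Bfsp1*, *Hsf4* and *Prox1*), summing to 271 to 315 CPM inside and 96.6 to 116 CPM outside. These sums were almost all *Prox1*, with means of 8.11 log2 CPM inside and 6.66 outside. *Hsf4* had means of 2.92 and -0.11, and *Bfsp1* 1.59 and -0.63, with 0, 12 and 0 reads of *Bfsp1* outside. The cultures listed 1, *Prox1*, at 0.357 to 44.9 CPM in 2D and 69.9 to 92.2 CPM in 3D. The lowest 2D value was that of the 2D replicate 3, with 1 read, and the other 2D samples had 5.12, 5.49 and 5.22 log2 CPM. Fibroblast markers (8 of 9 in the cultures and 6 of 9 in the regions) summed to 984 to 4004 CPM in 2D, 1601 to 2152 in 3D, 616 to 671 inside and 847 to 1186 outside. These markers did not move together. *Acta2* had means of 10.66 log2 CPM in 2D, 10.20 in 3D, 6.77 inside and 9.33 outside, while *Col3a1* (4.82, 7.31, 7.70 and 6.11) and *Pdgfrb* (5.74, 6.76, 6.83 and 5.95) had differences of the opposite sign in both comparisons. *Dcn* (2.29, 8.14, 7.60 and 7.25, with an SD of 2.45 in 2D) went with *Col3a1* in both. *Col1a1* (5.85, 6.11, 4.35 and 5.91) and *Thy1* (-1.34, 1.36, -0.15 and 1.84) went with *Acta2* in the regions only. *Col1a2* (0.93 in 2D and -0.54 in 3D) and *Tagln* (0.41 and -0.32), listed in the cultures only, went with *Acta2* there. Macrophage markers (1 of 5 in the cultures and 2 of 5 in the regions) summed to at most 10.6 CPM in any sample, and none of 4 endothelial markers was listed. The part of these levels in the results below was not tested, and in samples of many cells fewer cells of a type and less RNA per cell cannot be told apart.

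The top of the order of levels was the same in all 4 groups. *Cryab* was the highest of the genes and *Cryz* the next, and in each group every sample of *Cryab* lay above every sample of *Cryz*, which in turn lay above every sample of the gene that followed. The mean level of *Cryab* was 8.61 ± 0.55 log2 CPM in 2D (SD, n = 4), 9.30 ± 0.10 in 3D (n = 4), 8.67 ± 0.28 in the internal region (n = 4) and 8.24 ± 0.08 in the external region (n = 3). *Cryz* had 6.11 ± 0.30, 6.63 ± 0.17, 7.35 ± 0.23 and 7.06 ± 0.16 log2 CPM in the same order and with the same numbers of samples. *Crybg1*, *Crybg3*, *Cryl1* and, outside 2D, *Cryzl2* followed at means of 2.42 to 4.39 log2 CPM, and neighbors in this middle group overlapped in every condition. In 2D, *Cryzl2* lay below that middle group, at 1.42 ± 1.72 log2 CPM, without overlapping *Crybg3*, the gene before it. *Cryba4*, listed in the cultures only, was the lowest, at 0.89 ± 0.85 log2 CPM in 2D, where it overlapped *Cryzl2*, and 0.00 ± 0.57 in 3D, where it overlapped no other gene. The overlap in 2D came from the 2D replicate 3 alone, with 2.04 log2 CPM for *Cryba4* and -1.08 for *Cryzl2*. In the other 2D samples *Cryba4* had at most 1.01 and *Cryzl2* at least 1.89.

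**Figure D1:**
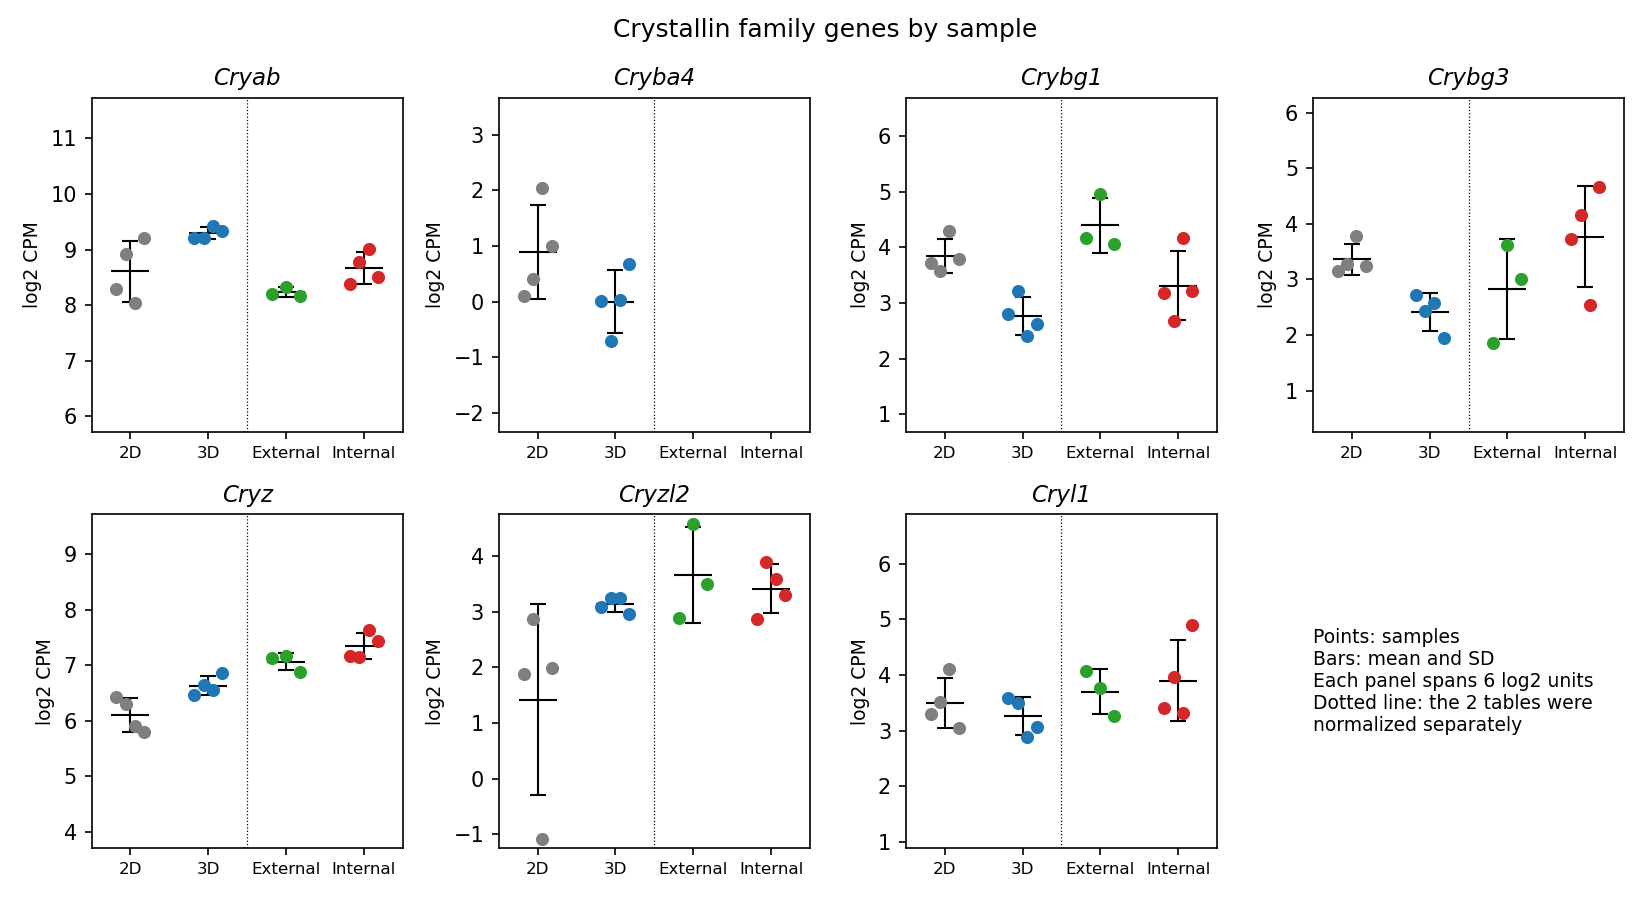
Levels of the 7 crystallin family genes in each sample, in log2 CPM, one panel per gene, each spanning the same number of log2 units; points are samples, horizontal lines are group means and bars are SDs. The dotted line separates the cultures from the regions, which were normalized separately. *Crybg1* and *Crybg3* lie lower in all 3D than in all 2D samples, and *Cryab* lies higher in all internal than in all external samples.

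Across the 7 genes in the cultures, 5 had an unadjusted limma p under 0.05, as had 33.7% of all genes, and 2 (*Crybg1* and *Crybg3*, both lower in 3D) an adjusted p under 0.05, a level that 19.0% of all 11677 genes reached. None passed the stricter call of an adjusted p under 0.01 with an absolute log2 fold change over 1, which 4.43% of all genes passed, and none passed it with voom (limma on the recovered reads). The 2D and 3D groups did not overlap for 4 of the 7 genes (*Crybg1*, *Crybg3*, *Cryz* and *Cryzl2*), against 24.0% of all genes. The median log2 fold change over the 7 genes was -0.23, against -0.03 over all genes, with 3 genes higher and 4 lower in 3D. Without the 2D replicate 3 the median over the 7 genes was -0.03, as over all genes, and only *Crybg1* had an adjusted p under 0.05. In the regions, 2 of 6 genes had an adjusted limma p under 0.05, *Cryab* higher and *Crybg1* lower inside, and these 2 were also the only ones with an unadjusted p under 0.05, as had 33.6% of all genes. Of all 11299 genes, 21.7% had an adjusted p under 0.05. None of the 6 passed the stricter call with limma or with voom, which 7.62% of all genes passed with limma. Only *Cryab* had internal and external groups that did not overlap, against 29.0% of all genes. The median log2 fold change over the 6 genes was 0.24, against 0.04 over all genes.

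**Figure D2:**
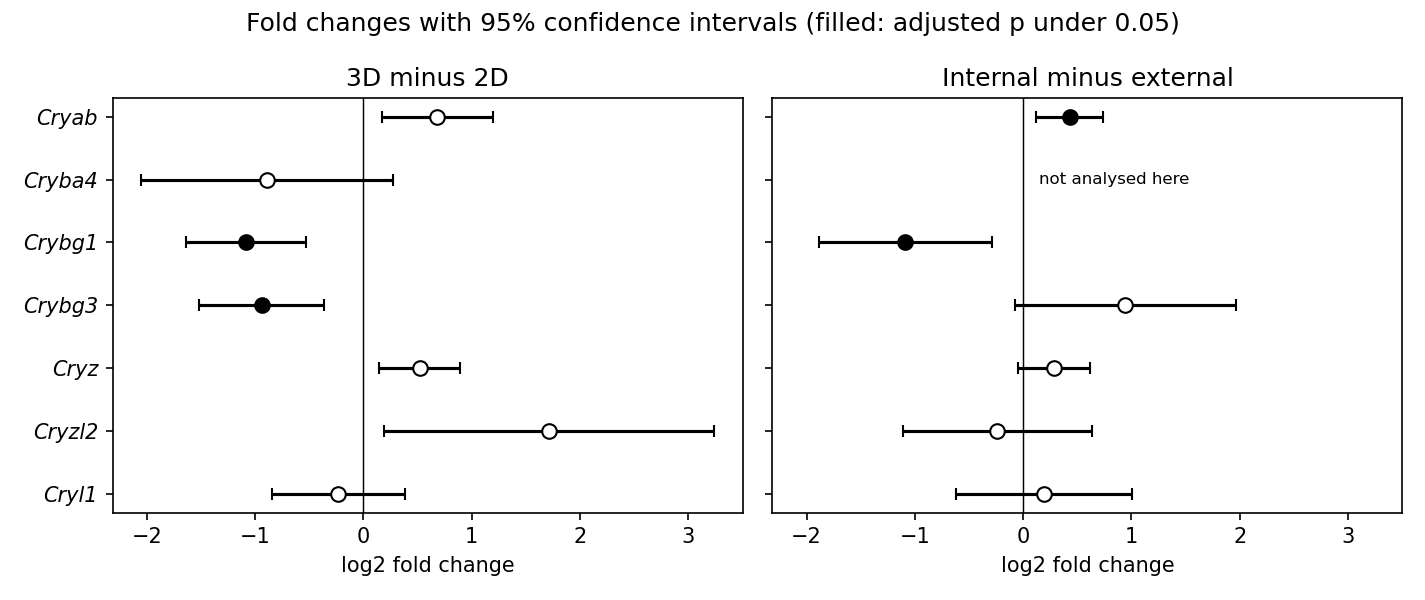
Log2 fold changes of the crystallin family genes with 95% confidence intervals from limma, 3D minus 2D on the left and internal minus external on the right; filled points have an adjusted p under 0.05. *Crybg1* is filled on the low side of both panels, *Crybg3* on the low side of the left panel, and *Cryab* on the high side of the right panel.

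*Cryab* encodes αB-crystallin, a small heat shock protein and chaperone that is also made outside the lens. The gene lies on the plus strand of chromosome 9 (GRCm38, chr9:50751325-50756636). Its 4 internal samples had 8.38, 8.79, 9.01 and 8.50 log2 CPM and its 3 external samples 8.20, 8.33 and 8.17, from 2218, 3820, 2244 and 4385 reads inside and 1789, 1479 and 1079 outside. Every internal sample was above every external one, and the lowest internal sample was close to the highest external one. The internal level was higher by 0.43 on the log2 scale (standard error 0.15, 95% confidence interval 0.12 to 0.74, adjusted p = 0.0410 in limma), a fold of 1.35. An exact two-sided permutation test over the samples gave p = 0.0571, where the smallest value it can give is 0.0286. The adjusted p was above 0.05 without internal replicate 2 (0.109) or 3 (0.136), or without external replicate 1 (0.0930), 2 (0.0710) or 3 (0.107). It was 0.193 without a variance trend, 0.0950 with median centring and 0.0653 with a block for the replicate number.

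The cultured samples of *Cryab* in 2D had 8.29, 8.92, 8.03 and 9.21 log2 CPM and the 3D samples 9.22, 9.21, 9.42 and 9.34. The highest 2D sample was level with the lowest 3D sample, the other 2D samples were lower, and the SD was 0.55 in 2D and 0.10 in 3D. The 3D level was higher by 0.68 (standard error 0.23, 95% confidence interval 0.17 to 1.19), with an adjusted p of 0.0628 in limma, and by 0.49 (adjusted p = 0.143) without the 2D replicate 3. The adjusted p was under 0.05 without the 2D replicate 2 (0.0369) or 4 (0.0217), and with a block for the replicate number (0.0380).

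*Hspb2*, another small heat shock protein gene, starts head to head with *Cryab* on the opposite strand, at chr9:50751078-50752354, and overlaps its start in the annotation. The reads were kept by strand, and both genes have their 3′ ends apart from each other. *Hspb2* had 4.92, 5.28, 5.27 and 4.94 log2 CPM in 2D and 5.67, 5.90, 6.02 and 5.66 in 3D. All 3D samples were above all 2D samples, with a log2 fold change of 0.71 and an adjusted p of 0.0126 in limma. Inside the spheroids *Hspb2* had 5.15, 5.80, 5.29 and 4.87 log2 CPM, and outside 5.03, 5.25 and 5.58. These groups overlapped, the difference was -0.01 (adjusted p = 0.977), and whether the regional difference of *Hspb2* differed from that of *Cryab* was not tested. The nearest listed genes on either side of the pair were also examined. *1110032A03Rik*, which lies 6192 bp beyond *Cryab*, was higher in 3D by 1.05 (adjusted p = 0.0272, and 0.0692 without the 2D replicate 3) and had 0.43 in the regions (adjusted p = 0.274), while *2310030G06Rik*, 4789 bp on the other side, had -0.31 and 0.62 (adjusted p = 0.571 and 0.630).

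*Cryba4*, a β-crystallin gene of the lens on the minus strand of chromosome 5 (chr5:112246493-112252518), was close to the limit of detection. It had 8, 8, 33 and 17 reads in the 2D samples and 6, 3, 6 and 11 reads in the 3D samples. The corresponding levels were 0.11, 0.41, 2.04 and 1.01 log2 CPM in 2D and 0.01, -0.71, 0.03 and 0.68 in 3D. The highest value was that of the 2D replicate 3, and 3 of 4 samples in 3D lay below all in 2D. The difference of -0.89 (standard error 0.53, 95% confidence interval -2.05 to 0.27) had an adjusted p of 0.260, and it was -0.51 without the 2D replicate 3. No direction could be set at this depth.

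*Crybg1*, also known as Aim1, encodes a large protein with βγ-crystallin motifs that is expressed in many tissues besides the lens and is tied to the actin cytoskeleton. It lies on the minus strand of chromosome 10 (chr10:43950636-44148853). In 2D it had 3.73, 3.58, 4.29 and 3.78 log2 CPM, from 124, 86, 165 and 130 reads. In 3D the levels were 2.81, 3.21, 2.41 and 2.63, from 53, 73, 39 and 48 reads. Each 3D sample lay below each 2D sample. *Crybg1* fell by 1.08 on the log2 scale in 3D (standard error 0.25, 95% confidence interval -1.64 to -0.53, adjusted p = 0.0153 in limma), a fold of 2.12. Without the 2D replicate 3 the difference was -0.93 (adjusted p = 0.0445), and the adjusted p was 0.0513 without the 3D replicate 3.

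In the regions *Crybg1* was lower inside. Its internal samples had 3.17, 2.68, 4.16 and 3.21 log2 CPM and its external samples 4.16, 4.96 and 4.05, from 58, 53, 77 and 108 reads inside and 107, 142 and 61 outside. Of the 4 internal samples, 3 lay below all external samples, and the internal replicate 3 lay among them. The difference was -1.09 (standard error 0.39, 95% confidence interval -1.89 to -0.29, adjusted p = 0.0472 in limma), a fold of 2.13, and the exact two-sided permutation test gave p = 0.114. The adjusted p was 0.0140 without the internal replicate 3 and lay between 0.0582 and 0.260 without any other single sample, the highest without the external replicate 2. It was 0.107 without a variance trend and 0.132 with a block for the replicate number.

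*Crybg3*, a related gene on the minus strand of chromosome 16 (chr16:59490775-59600979), also encodes a protein with βγ-crystallin motifs. The 2D samples had 3.14, 3.27, 3.78 and 3.25 log2 CPM (82, 69, 115 and 89 reads) and the 3D samples 2.73, 2.44, 2.57 and 1.94 (50, 42, 44 and 29 reads). No 3D sample reached the lowest 2D sample. *Crybg3* fell by 0.94 on the log2 scale in 3D (standard error 0.26, 95% confidence interval -1.52 to -0.36, adjusted p = 0.0309 in limma), a fold of 1.92. The adjusted p was 0.0887 without the 2D replicate 3, 0.0580 without the 2D replicate 4, and 0.0582, 0.0637 and 0.0837 without the 3D replicates 2, 3 and 4.

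In the regions the sign of the *Crybg3* difference was the opposite of that of *Crybg1*. Its internal samples had 3.72, 4.16, 2.54 and 4.66 log2 CPM and its external samples 1.85, 3.62 and 3.01. These came from 86, 152, 24 and 302 reads inside and 20, 55 and 29 outside. Of the internal samples, 3 lay above all external ones and the internal replicate 3 lay below 2 of them. The difference of 0.94 (standard error 0.49, 95% confidence interval -0.08 to 1.96) had an adjusted p of 0.183, and the SDs of 0.91 inside and 0.90 outside were the widest of the 6 genes. Leaving out 1 sample moved it from 0.46 (adjusted p = 0.576, without the external replicate 1) to 1.36 (adjusted p = 0.0399, without the internal replicate 3). The internal replicate 3 thus lay apart from the other internal samples in both genes, with more *Crybg1* and less *Crybg3*. It also had the lowest depth of the internal samples, 4256391 reads.

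The windows around the annotated starts of these βγ genes are shown because both genes fell in 3D. Each runs 5′ to 3′ from 250 bases before the start to 50 bases after it, on the minus strand of GRCm38.p6 as given by RefSeq, with each CG dinucleotide, the same on both strands, in capitals.
Crybg1, chr10:44148779-44149078: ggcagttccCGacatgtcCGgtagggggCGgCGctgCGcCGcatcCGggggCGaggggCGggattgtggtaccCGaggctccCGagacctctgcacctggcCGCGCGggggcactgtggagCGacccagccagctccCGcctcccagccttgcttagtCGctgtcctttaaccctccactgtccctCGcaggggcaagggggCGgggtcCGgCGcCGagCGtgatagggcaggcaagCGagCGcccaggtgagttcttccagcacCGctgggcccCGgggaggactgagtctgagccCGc
Crybg3, chr16:59600998-59601297: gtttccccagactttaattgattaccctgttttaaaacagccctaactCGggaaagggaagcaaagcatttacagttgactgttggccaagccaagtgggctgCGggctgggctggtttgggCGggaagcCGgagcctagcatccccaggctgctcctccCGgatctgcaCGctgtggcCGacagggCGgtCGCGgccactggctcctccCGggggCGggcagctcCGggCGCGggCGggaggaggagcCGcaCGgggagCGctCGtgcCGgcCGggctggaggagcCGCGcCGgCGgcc
The *Crybg1* window held 28 CG dinucleotides at 71.7% G and C, and the *Crybg3* window 26 at 67.7%. Over all 32851 such windows 94.6% held at least 1 CG, the median was 7 (quartiles 3 and 20), and the median content of G and C was 52.7%. For *Crybg1* RefSeq gives further starts at chr10:44022226-44022525 and chr10:44004797-44005096, whose windows held 3 and 5 CG at 41.7% and 44.7% G and C. Reads from 3′ ends do not show which start was in use. Windows were found for 6 of the 7 genes. Those of *Cryz*, a gene higher in each 3D than in each 2D sample, held 25 and 16 CG at 63.3% and 53% G and C. The *Cryl1* window held 18 CG at 62.3%, the *Cryzl2* window 12 at 58% and the *Cryba4* window 1 at 54.3%. Many CG dinucleotides were thus not particular to the genes that fell in 3D, and a link between CG content and the fall was not tested.

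*Cryz* encodes ζ-crystallin, a quinone oxidoreductase that uses NADPH and that became a lens protein in a few mammals such as the guinea pig. It lies on the plus strand of chromosome 3 (chr3:154596711-154623182). The 2D samples had 6.42, 6.30, 5.91 and 5.80 log2 CPM and the 3D samples 6.46, 6.64, 6.56 and 6.86, from 510 to 818 and from 686 to 934 reads. Each 3D sample was above each 2D sample, with little room between the lowest 3D and the highest 2D value. The difference of 0.52 (standard error 0.17, 95% confidence interval 0.15 to 0.89) had an adjusted p of 0.0543 in limma. The adjusted p was 0.0278 without the 2D replicate 1 and 0.0354 without the 2D replicate 2.

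*Cryz* in the regions had 7.17, 7.15, 7.63 and 7.44 log2 CPM inside and 7.13, 7.17 and 6.88 outside. Only 2 internal samples were above all external ones. The difference of 0.29 (standard error 0.16, 95% confidence interval -0.05 to 0.62) had an adjusted p of 0.223. The interval allows a difference as large as that of *Cryab* as well as none.

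*Cryab* and *Cryz* together held most of the reads of the 6 genes listed everywhere. *Cryab* took 70.4 to 86.8% of these reads in 2D samples, 81.5 to 85.0% in 3D, 59.5 to 69.3% inside and 59.0 to 64.0% outside. *Cryz* took 8.13 to 19.8%, 11.7 to 14.6%, 22.3 to 28.5% and 26.1 to 29.2%. Per read of *Cryz* there were 3.65 to 10.7 reads of *Cryab* in 2D, 5.61 to 7.29 in 3D, 2.09 to 3.11 inside and 2.10 to 2.45 outside. Within the cultures the log2 ratio of *Cryz* to *Cryab* differed by -0.16 between 3D and 2D (exact two-sided permutation p = 0.686), or by -0.04 without the 2D replicate 3 (exact permutation p = 0.914), and within the regions by -0.15 between inside and outside (p = 0.429, exact permutation). The ratio is computed within a sample and does not depend on the scaling of the libraries. Every microdissected sample had fewer *Cryab* reads per *Cryz* read than every cultured sample, but sample type, frozen sectioning, LCM and extraction kit all changed together here and cannot be told apart.

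**Figure D3:**
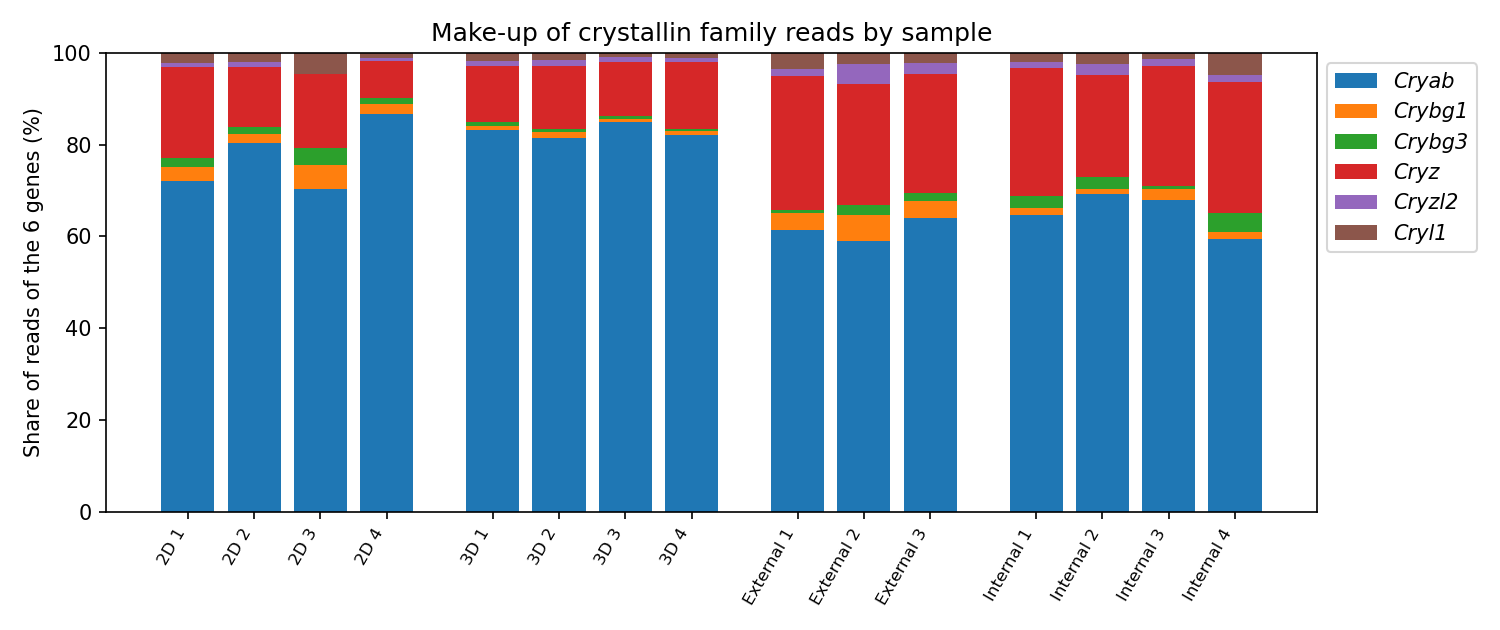
Share of each gene, in percent, in the reads of the 6 crystallin family genes listed in both the cultures and the regions, one bar per sample. *Cryab* takes the largest share in every sample, and *Cryz* takes more in each microdissected sample (22.3 to 29.2%) than in any cultured sample (8.13 to 19.8%).

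*Cryzl2*, a gene of the same oxidoreductase family as *Cryz*, lies on the plus strand of chromosome 1 (chr1:157458577-157492638). Its 2D samples had 33, 52, 2 and 36 reads and its 3D samples 65, 75, 71 and 61. The levels were 1.89, 2.88, -1.08 and 2.00 log2 CPM in 2D and 3.09, 3.25, 3.24 and 2.96 in 3D, so that all 3D samples lay above all 2D samples. The count of 2 reads in the 2D replicate 3 is under the 3 reads taken as the smallest signal. The difference of 1.72 (standard error 0.69, 95% confidence interval 0.19 to 3.24) had an adjusted p of 0.108 in limma. It was 0.88 (adjusted p = 0.0875) without the 2D replicate 3 and 2.20 (adjusted p = 0.0327) without the 2D replicate 2.

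Inside the spheroids *Cryzl2* had 2.88, 3.90, 3.58 and 3.31 log2 CPM, and outside 2.88, 4.59 and 3.49. The regions overlapped throughout, and the difference of -0.24 (standard error 0.42, 95% confidence interval -1.11 to 0.64) had an adjusted p of 0.736. It was -0.62 without the external replicate 1 and turned to 0.23 without the external replicate 2, the sample with the highest level. Among the 7 genes only *Cryzl2* shared sequence with other genes in the last 300 bases of its transcripts, where 56 of 939 stretches of 50 bases were found elsewhere too, in transcripts that include those of 14 listed genes. The study counted uniquely mapped reads, and whether any *Cryzl2* reads were lost through such stretches was not tested.

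*Cryl1* encodes λ-crystallin, a dehydrogenase of the glucuronate pathway that was named for its abundance in the rabbit lens. It lies on the minus strand of chromosome 14 (chr14:57274993-57398529). Cultured samples had 3.30, 3.51, 4.11 and 3.04 log2 CPM in 2D and 3.58, 3.50, 2.88 and 3.07 in 3D. The groups overlapped, with a difference of -0.23 (standard error 0.28, 95% confidence interval -0.85 to 0.38, adjusted p = 0.595 in limma). Without the 2D replicate 3, the highest sample, the difference was -0.03 (adjusted p = 0.963). In the regions it had 3.41, 3.97, 3.31 and 4.90 inside and 4.07, 3.76 and 3.27 outside. These groups overlapped too, with a difference of 0.20 (standard error 0.39, 95% confidence interval -0.62 to 1.01, adjusted p = 0.767). Its sign turned without the internal replicate 4 (-0.14), the sample with the highest level, and without the external replicate 3 (-0.02).

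Overlapping genes on the opposite strand were checked for the other members. *Crybg1* and *Crybg3* each converge at their 3′ ends with a listed gene, *Rtn4ip1* and *Riox2*, and *Cryz* shares its start region with *Tyw3*, which takes part in the modification of transfer RNA. *Rtn4ip1* had -0.17 in the cultures and -0.34 in the regions (adjusted p = 0.667 and 0.516). *Riox2* had -0.39 and -0.72 (adjusted p = 0.219 and 0.194). *Tyw3* had -0.62 and -0.07 (adjusted p = 0.0965 and 0.937).

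Of 8 further genes named as small heat shock proteins (*Hspb*) 5 were listed, with a median log2 fold change of 0.68 in the cultures (0.14 without the 2D replicate 3) and 0.08 in the regions. The culture median was the value of *Hspb11* (adjusted p = 0.491 in limma), which had 52 to 888 reads over the cultured samples. *Hspb8* had -0.48 there (adjusted p = 0.340), so the genes lay on both sides of 0. At an adjusted p under 0.05, which 19.0% of all genes reached in the cultures and 21.7% in the regions, *Hspb2* was higher in 3D and *Hspb6* lower in 3D (-0.62, adjusted p = 0.0223), and *Hspb6*, whose protein is best known from muscle, was also lower inside (-0.82, adjusted p = 0.00194). *Hspb1*, the gene of the stress protein HSP25, had 0.79 in the cultures and 0.98 in the regions (adjusted p = 0.400 and 0.152). Its 2D replicate 3 held 7 reads, and without that sample the difference in the cultures was 0.14 (adjusted p = 0.859). *Hspb11* had 0.81 in the regions (adjusted p = 0.258). Among 9 genes whose products work with αB-crystallin, 7 were listed, with medians of -0.14 (-0.09 without the 2D replicate 3) and 0.09. *Hsp90aa1*, the inducible cytosolic HSP90, was lower in 3D (-0.62, adjusted p = 0.0260, and 0.0610 without the 2D replicate 3) and lower inside (-1.41, adjusted p = 3.30e-07). *Hspa1b*, an inducible HSP70 gene, had 0.43 in the cultures (adjusted p = 0.484) and was higher inside (1.44, adjusted p = 0.0172).

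Transcription factors known to act on crystallin genes were listed for 13 of 21 names in the cultures and 14 of 21 in the regions. The names were chosen with earlier results of these data known, and the study had reported *Prox1*, *Maf* and *Hsf4* as higher inside. The counts below are therefore not independent of those results. In the cultures 4 (*Maf*, *Pax6*, *Six3* and *Tfap2a*) had an adjusted p under 0.05, all higher in 3D, against 19.0% of all genes in either direction, and none passed the stricter call with limma. The largest fold changes were those of *Prox1*, a homeobox gene needed for fiber elongation, at 2.84 (adjusted p = 0.147), and *Maf*, an activator of crystallin promoters, at 1.11 (adjusted p = 0.0189). The 2D samples of *Prox1* had 330, 327, 1 and 355 reads, so that the 2D replicate 3 lay far below the others, as it did for *Cryzl2*. Without that sample *Prox1* was higher in 3D by 1.15 (adjusted p = 0.00382), *Maf* by 1.19 (adjusted p = 0.0294), and *Pax6*, *Six3* and *Tfap2a* had adjusted p values of 0.0680, 0.0686 and 0.101. In the regions 7 of the 14 had an adjusted p under 0.05, all higher inside, against 21.7% of all genes in either direction, and 4 of them passed the stricter call, against 7.62%. These were *Prox1* (1.45, adjusted p = 1.30e-07), *Maf* (1.25, adjusted p = 7.45e-05), *Rara*, a retinoic acid receptor gene (1.18, adjusted p = 0.00136), and *Hsf4*, the heat shock factor of the lens (3.03, adjusted p = 0.00394). *Hsf4* had 62, 37, 26 and 142 reads inside and 0, 6 and 5 outside, so that its fold change depends on the prior count. The medians of the list were 0.41 in the cultures and 0.61 in the regions. These values stand beside the regional difference of *Cryab*, and their part in it was not tested.

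**Figure D4:**
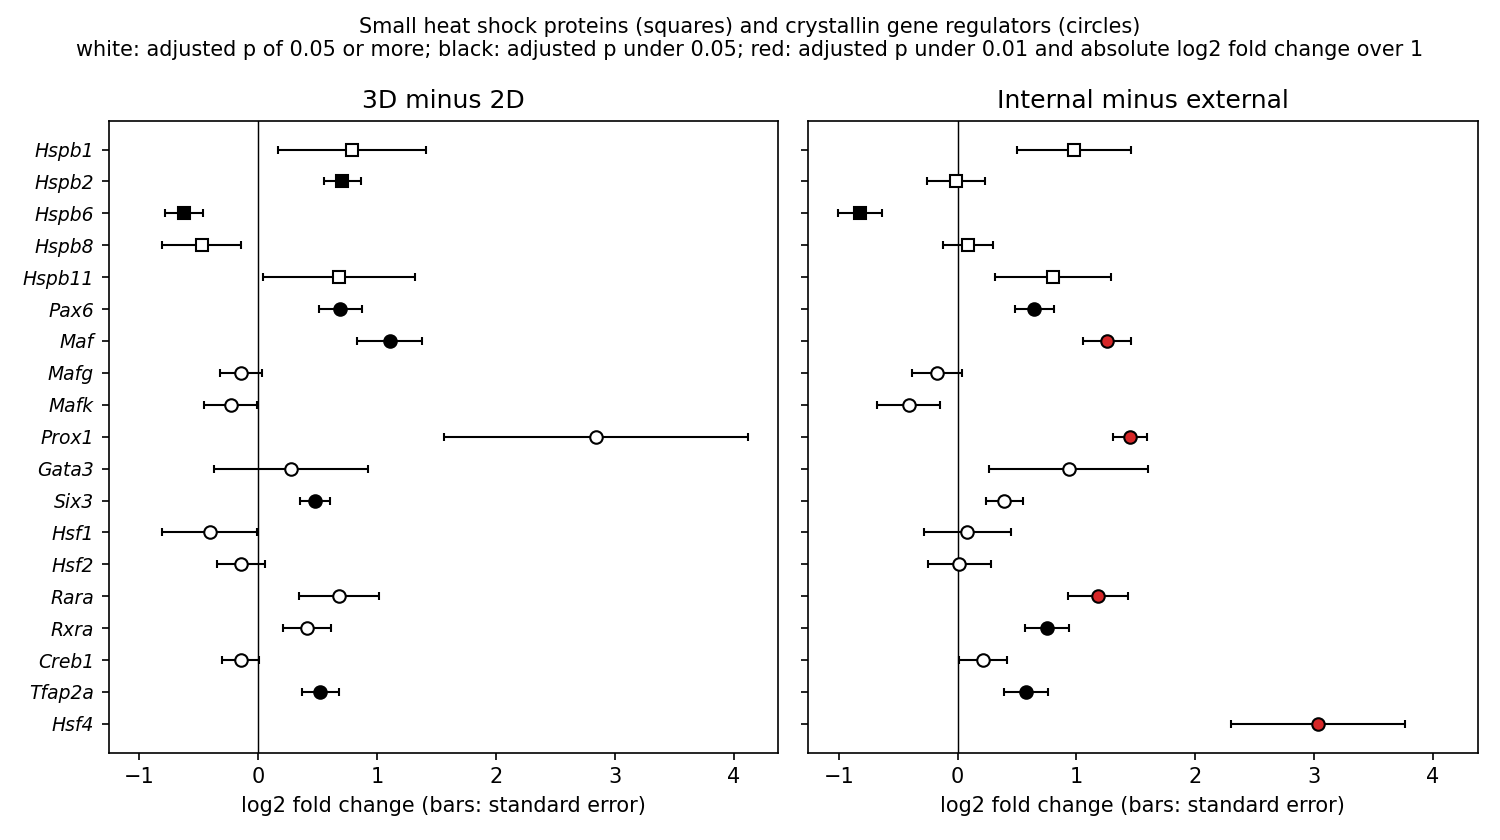
Log2 fold changes of the listed genes named as small heat shock proteins (squares) and regulators of crystallin genes (circles), 3D minus 2D on the left and internal minus external on the right. Bars are standard errors. Red marks an adjusted p under 0.01 with an absolute log2 fold change over 1, black an adjusted p under 0.05 and white all others. The 4 red points, *Prox1*, *Maf*, *Rara* and *Hsf4*, are all on the internal side.

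Enzymes related to *Cryz* and *Cryl1* were mixed. Of 11 oxidoreductase genes around *Cryz*, 9 were listed, with medians of 0.11 in the cultures (-0.05 without the 2D replicate 3) and -0.34 in the regions. *Vat1*, a zinc-type oxidoreductase relative, was higher in 3D (0.54, adjusted p = 0.0371), and *Mecr*, a mitochondrial enoyl reductase of fatty acid synthesis, was lower in 3D (-0.61, adjusted p = 0.0402) and lower inside (-0.91, adjusted p = 0.0118). Of 7 genes of the glucuronate and xylulose pathway, 6 were listed, with medians of 0.00 (0.04 without the 2D replicate 3) and -0.15. *Xylb*, the xylulose kinase gene, was lower in 3D (-0.88, adjusted p = 0.0313). *Ugdh*, which makes UDP-glucuronate, was lower inside (-0.87, adjusted p = 0.0341). Without the 2D replicate 3 the adjusted p in the cultures was 0.0946 for *Vat1*, 0.0912 for *Mecr* and 0.0809 for *Xylb*.

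For each gene, the genes with the most similar levels over the samples were named by Pearson's r, as a description without a test. The highest of 8830 values over 8 samples in the cultures, or of 8861 over 7 samples in the regions, is high in any case, since the samples share libraries and conditions. In the cultures *Cryab* was most like *Prrx2* (r = 0.95), *Crybg1* most like *Nrg1* (0.99), *Crybg3* most like *Myo5a* (0.97), *Cryz* most like *Apbb1* (0.98), *Cryl1* most like *Hdgfl3* (0.97) and *Cryba4* most like *Tm2d2* (0.97). *Cryzl2* was most like *Ankrd34a* (0.99) and *Prox1* (0.98), and these fell to 0.95 and 0.91 without the 2D replicate 3. In the regions *Cryab* was most like *Gsta4* (0.99), a glutathione transferase gene, *Crybg1* most like *Abhd14a* (0.98), *Crybg3* most like *Atp6v1c1* (0.97), *Cryz* most like *Dock6* (0.98), *Cryzl2* most like *Gcn1* (0.95) and *Cryl1* most like *Gabpa* (0.95). No gene was among the 3 most similar to the same member in both the cultures and the regions.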

How the data were processed

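The 15 samples were grouped by their labels, and the genes and gene lists were chosen with earlier results of these data known. According to the methods and processing notes, the authors mapped sense reads to GRCm38.p6 (STAR 2.7.8a), counted those with a unique position (featureCounts 1.6.0) and tested genes with edgeR. The authors deposited log2 CPM for each sample, on which a prior of 2 reads on average had been added, after removing genes of low CPM. They also deposited fold changes and p-values, which were not used. Whole reads were recovered from the spacing of the log2 values, for 100% of values within 0.05 reads.

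Each table was fitted with limma 3.58.1 in R 4.3.3 (variance trend, two-sided, Benjamini-Hochberg adjustment over all its genes), after tests on simulated data. No count model was run, since log2 CPM is the deposited unit, apart from voom on the recovered reads. Other settings tried were no trend, a robust prior, a replicate block, other priors, median centring, a minimum level, an exact permutation test, and leaving out each sample. The lists without the 2D replicate 3, the *Cryz* to *Cryab* ratio and the likeness with samples left out were added after the data were seen. Within each list, genes passing the stricter call were named, otherwise those with the largest fold changes, and further members with an adjusted p under 0.05 or of the same family were named after their values were seen. Positions come from GENCODE vM21 on GRCm38, which held 11676 of 11677 and 11298 of 11299 gene IDs. The rest was done in Python 3.11.15 with pandas 2.3.3, numpy 2.4.6, matplotlib 3.10.9 and scipy 1.17.1.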

Additional observations from a re-analysis of the deposited data

How the results depend on the processing

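When the call needed an adjusted p under 0.05 in place of 0.01, 1 member (*Crybg1*) was called in each comparison, with 978 genes called in all in the cultures and 1177 in the regions. Leaving out 1 sample at a time gave 0 to 5 members at an adjusted p under 0.05 in the cultures (9.82% to 24.3% of all genes) and 0 to 2 in the regions (15.8% to 20.4% of all genes), and 161 to 770 and 649 to 850 genes at the stricter call. Without a variance trend, 0 members reached an adjusted p under 0.05 in the regions (13.2% of all genes), and 324 genes passed the stricter call. With median centring the count was 1 member in the regions, *Crybg1* (22.0% of all genes). The cause of these shifts was not tested. Samples that share a replicate number deviated together in 2 pairs of the cultures and in no other pair, and not every sample correlated best with its own number (correlations of their deviations: 0.227, 0.503, 0.0661 and 0.00521 in the cultures, -0.0440, -0.0650 and -0.0634 in the regions), so the numbers were not taken as pairs. With the replicate block the count was 3 members in the cultures (23.0% of all genes) and 0 in the regions (15.8%), where *Cryl1* turned to -0.14. The internal replicate 4 has no external sample of its number, so the block takes it out of the regional comparison. The members' regional fold changes with the block were those of the fit without that sample. Leaving out 1 sample turned *Cryl1* (-0.14 to 0.39) and *Cryzl2* (-0.62 to 0.23) in the regions, and no other member's sign. *Crybg1* in the cultures kept an adjusted p under 0.05 in 8 of 8 other model settings and in 7 of 8 fits with 1 sample left out. Regional *Cryab* kept it in 5 of 8 and 2 of 7, with adjusted p between 0.0151 and 0.193 over the settings. Regional *Crybg1* kept it in 6 of 8 and 1 of 7. *Cryba4* in most cultured samples and *Cryzl2* in the 2D replicate 3 were limited by few reads.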
